A study of Homo sapiens with 8 samples.

Results

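The machinery that copies DNA was followed in human U-2OS Tet-ON cells, an osteosarcoma line that carries the tetracycline-regulated transactivator, through 53 genes of DNA replication and S phase. The genes were chosen by symbol for their roles in origin licensing, the replicative helicase, the DNA polymerases, clamp loading, fork protection, nucleotide supply and chromatin assembly, and all 53 were found among the 18388 genes of the count table. Cells received 50 nM of a control siRNA pool (siControl) or of siRNAs against CGGBP1 (siCGGBP1), a protein that binds CGG repeats, and were collected 72 h later. For the last 60 min the medium held 75 µM 4-thiouridine (4sU), a uridine analog that marks newly synthesized RNA because it is read as C after alkylation. There were 3 libraries in each of these 2 groups, and 1 further siControl library each with 0 and 200 µM 4sU that belonged to neither. All 8 carried the Tet-ON transactivator, and every title also names DMSO.

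In each cell cycle the origin recognition complex, CDC6 and CDT1 load the MCM helicase onto origins in G1, and geminin stops further loading once S phase has begun. CDC45 and the GINS complex then turn the loaded helicase into the active replicative helicase, polymerase alpha-primase starts each strand, and polymerases delta and epsilon extend it on the sliding clamp PCNA. Many of the genes are transcribed in a wave at the G1/S border under E2F factors, so that their RNA is most abundant in dividing cells, and a tumor line that divides in culture expresses all of them. The data bear on the question of whether cells depleted of CGGBP1 hold less RNA of this machinery and make less of it. In such a bulk culture, fewer cells in S phase and less RNA per cell cannot be told apart.

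The 6 libraries held 10127519 to 14221515 reads, counted at the 3′ ends of transcripts. CGGBP1 itself had 1245, 1089 and 891 normalized reads in siControl and 212, 117 and 362 in siCGGBP1, a log2 fold change of -2.22 ± 0.39 (SE, n = 3 per group, edgeR quasi-likelihood test, adjusted p = 0.0138). Of the cell type markers, VIM, COL1A1 and SPARC carried nearly all of the osteoblast and mesenchymal signal, which summed to 40428 to 50959 normalized reads in siControl and 61247 to 84143 in siCGGBP1, whereas the 4 blood and endothelial markers in the table summed to 7.93 reads or less and the 3 epithelial ones to 55.5 to 152 reads. CDH1, CD3E and PECAM1 were at 0 in all 6 libraries. The study's methods call its replicates biological, and the labels do not say whether libraries of a group came from separate cultures, so the p-values measure the spread between these libraries. In siControl library 3 and siCGGBP1 library 3, 57.4% and 59.8% of the tested genes had an estimated share of new RNA of exactly 0, against 22.5% to 31.9% in the other four, and results are therefore also given without both.

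Of the 53 genes, 46 had a promoter in the RefSeq table for GRCh38.p14 (250 bases before to 50 bases after the start). The E2F consensus, searched on both strands as TTTCCCGC, TTTCGCGC, TTTGCCGC and TTTGGCGC, was present in 22 of the 46 (47.8%) and in 3.99% of all 27305 genes of that table. The CCAAT box, searched as CCAAT on both strands and contained in none of the E2F words, was present in 28 (60.9%) and in 39.7% of all genes. The cell cycle homology region TTTGAA, an element of later G2/M genes, was found in 1 of the 46, RRM1, and in 18.2% of all genes. CGGCGGCGG, 3 units of the repeat that CGGBP1 binds, was found in 5 (10.9%) and in 7.46% of all genes; those 5 were MCM6, CDC45, LIG1, TIPIN and UHRF1. MCM4, MCM5, GINS4, POLD3, DNA2, RPA2 and RPA3 had no entry.

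Promoters are printed for all 6 genes that were lower in every siCGGBP1 library than in any siControl library and hold the whole E2F consensus within the 250 bases before the start. Each runs 5′ to 3′ on the strand of its gene, ends at the base before the start, and has E2F and CCAAT matches of either strand in capitals. They belong to MCM3 (chr6:52284743-52284992, minus strand), GMNN (chr6:24775163-24775412, plus strand), MCM6 (chr2:135876444-135876693, minus strand), GINS2 (chr16:85688955-85689204, minus strand), TIPIN (chr15:66356686-66356935, minus strand) and TYMS (chr18:657403-657652, plus strand), in GRCh38.p14.
MCM3: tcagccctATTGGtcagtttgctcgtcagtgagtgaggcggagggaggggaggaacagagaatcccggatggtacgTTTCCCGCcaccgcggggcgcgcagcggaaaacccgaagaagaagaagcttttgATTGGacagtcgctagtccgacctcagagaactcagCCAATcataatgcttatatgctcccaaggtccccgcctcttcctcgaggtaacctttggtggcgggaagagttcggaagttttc
GMNN: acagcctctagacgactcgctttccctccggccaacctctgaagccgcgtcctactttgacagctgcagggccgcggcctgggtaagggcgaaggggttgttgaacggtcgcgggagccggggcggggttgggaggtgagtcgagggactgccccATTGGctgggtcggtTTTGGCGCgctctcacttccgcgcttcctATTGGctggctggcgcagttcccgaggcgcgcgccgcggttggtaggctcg
MCM6: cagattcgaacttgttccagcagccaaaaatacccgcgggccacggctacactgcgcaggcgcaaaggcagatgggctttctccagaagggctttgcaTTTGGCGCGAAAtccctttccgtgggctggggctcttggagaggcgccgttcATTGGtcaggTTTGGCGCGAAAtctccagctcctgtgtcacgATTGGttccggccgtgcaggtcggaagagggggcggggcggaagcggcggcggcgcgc
GINS2: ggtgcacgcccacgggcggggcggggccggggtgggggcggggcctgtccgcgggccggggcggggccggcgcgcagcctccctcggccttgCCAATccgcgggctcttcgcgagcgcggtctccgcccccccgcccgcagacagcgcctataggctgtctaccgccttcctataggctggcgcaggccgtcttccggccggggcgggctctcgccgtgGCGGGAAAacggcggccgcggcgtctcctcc
TIPIN: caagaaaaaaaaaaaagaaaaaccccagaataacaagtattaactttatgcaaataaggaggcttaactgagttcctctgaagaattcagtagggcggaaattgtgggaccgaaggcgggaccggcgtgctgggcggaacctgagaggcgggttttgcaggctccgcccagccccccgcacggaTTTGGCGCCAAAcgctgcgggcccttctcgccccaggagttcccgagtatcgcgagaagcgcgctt
TYMS: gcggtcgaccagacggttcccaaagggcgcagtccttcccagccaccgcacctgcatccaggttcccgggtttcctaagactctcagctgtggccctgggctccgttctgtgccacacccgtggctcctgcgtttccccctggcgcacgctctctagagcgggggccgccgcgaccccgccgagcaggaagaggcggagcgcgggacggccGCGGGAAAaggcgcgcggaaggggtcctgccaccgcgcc
The E2F match began 174 bases before the start in MCM3, 80 in GMNN, 39 in TYMS and 31 in GINS2, and TIPIN held an overlapping pair that began 66 and 62 bases before it. MCM6 held 4 matches in 2 overlapping pairs, which began 152, 148, 90 and 86 bases before its start, with 1 match of each pair on each strand. MCM3 carried 3 CCAAT boxes, GMNN and MCM6 carried 2 each, GINS2 carried 1, and none stood in this stretch of TIPIN or TYMS. A match describes the letters of the promoter and was not tested for binding.

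Most replication genes had a log2 fold change below 0 in siCGGBP1, and both that passed the test were subunits of the MCM helicase. On total RNA, 48 of the 53 had a log2 fold change below 0 (90.6%, against 49.9% of the 10138 genes tested), and their median was -0.46, against 0.00 for all tested genes. Genes were called by the edgeR quasi-likelihood test at an adjusted p under 0.05 over all tested genes. It called 2 members lower, MCM5 and MCM3 (1.21% of tested genes were called lower), and 0 higher (0.572%). At an unadjusted p under 0.05, 16 members were lower and 0 higher, against 8.32% and 8.11% of tested genes. In 17 members (32.1%) each siCGGBP1 library lay below each siControl library, as in 12.1% of tested genes, and in 0 members was it the other way round, again against 12.1%. DESeq2 called 10 members lower (3.5% of tested genes) and 0 higher, and edgeR on libraries 1 and 2 of both groups alone called 6 lower and 0 higher, where 2.28% and 1.73% of tested genes were called lower and higher, with 42 below 0 and a median of -0.50.

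**Figure D1:**
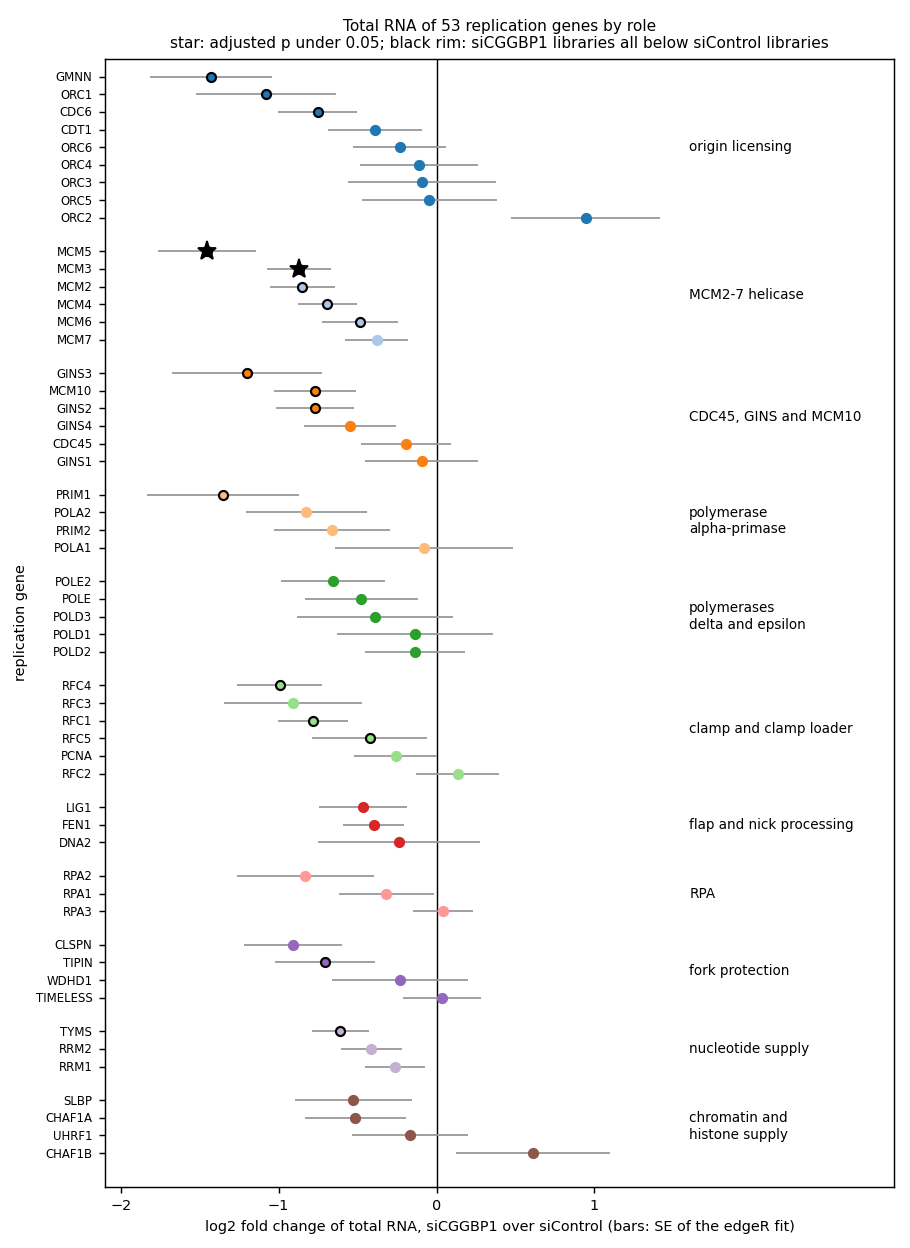
Log2 fold change of total RNA (x axis, siCGGBP1 over siControl, bars are the SE of the edgeR fit with 3 libraries per group) for the 53 genes (y axis), grouped by role. Points lie left of 0 for 48 of 53, the stars mark MCM5 and MCM3, and the 17 black rims or stars mark genes whose libraries did not overlap.

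The summed reads of the 53 genes showed the same difference library by library. They made up 6643, 6939 and 6707 RPM (reads relative to the library total) in siControl and 5125, 4510 and 4853 in siCGGBP1. The siControl libraries with 0 and 200 µM 4sU had 6896 and 6014, so that all 5 siControl libraries lay above the 3 siCGGBP1 libraries. After scaling for library composition the summed level in siCGGBP1 was 0.706 times that in siControl. Measured against the siControl mean, the median gene stood at -0.42, -0.57 and -0.47 on the log2 scale in siCGGBP1 libraries 1, 2 and 3, with 43, 45 and 44 of the 53 below the mean, and at -0.01, -0.05 and 0.06 in the siControl libraries.

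**Figure D2:**
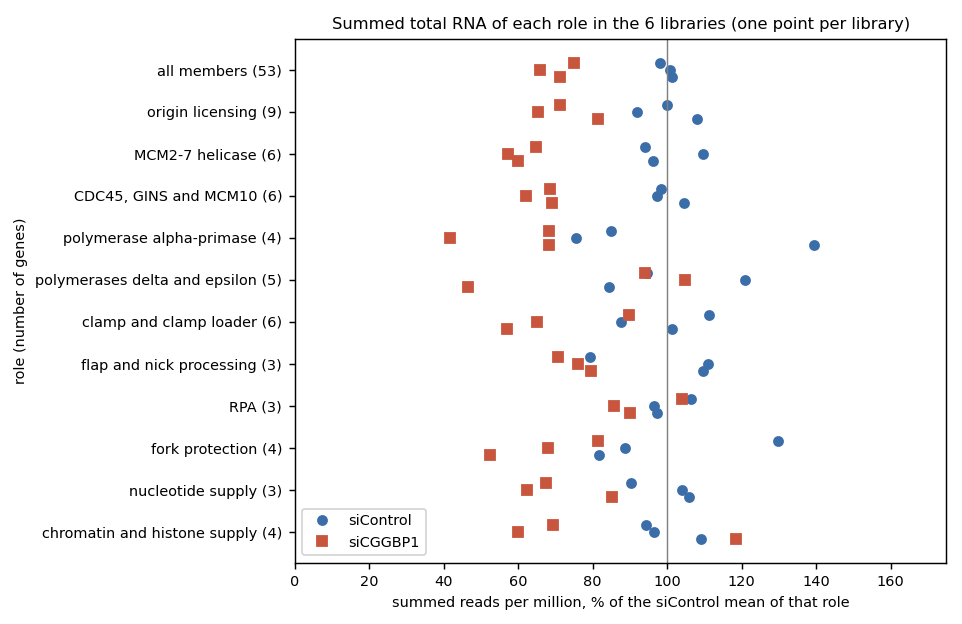
Summed total RNA of each role in the 6 libraries (x axis, percent of the siControl mean of that role; y axis, role and its number of genes; one point per library). The siCGGBP1 squares lie left of every siControl point for the sum of all 53, the MCM helicase, and CDC45 with GINS and MCM10. The same holds for origin licensing, polymerase alpha-primase, fork protection and nucleotide supply. In the remaining roles the squares are not all left of the siControl points.

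Origin licensing was uneven. The median log2 fold change of its 9 genes was -0.23, 8 were below 0, and the 3 without overlap were GMNN, CDC6 and ORC1. GMNN, which encodes geminin, the inhibitor of CDT1, had 738, 618 and 1570 normalized reads in siControl and 381, 242 and 464 in siCGGBP1. The groups did not overlap, but siControl library 3 stood far above the other two, and the log2 fold change of -1.43 ± 0.39 had an adjusted p of 0.0863 by edgeR. CDC6, the loader that joins the origin complex, went from 1401, 1514 and 1327 reads to 692, 732 and 1091, again without overlap (-0.75 ± 0.25, edgeR adjusted p = 0.152). ORC1, the subunit that is made and destroyed with the cell cycle, had 413, 267 and 366 reads against 191, 199 and 105 (-1.08 ± 0.44, edgeR adjusted p = 0.249). ORC3, ORC4, ORC5 and ORC6 ranged from -0.23 to -0.05 with overlapping groups. ORC2 was the one gene above 0 in this role, at 0.94 ± 0.47. Its 334, 195 and 234 reads in siControl met 301, 287 and 879 in siCGGBP1, so the value rests on siCGGBP1 library 3.

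The MCM helicase, a ring of 6 different subunits that unwinds the double strand, held both called genes. All 6 subunits were below 0, with a median of -0.77, and in 5 of them the groups did not overlap. MCM5 (chromosome 22, 35400134 to 35425431 on the plus strand of GRCh38) had 1670, 1876 and 1202 normalized reads in siControl and 636, 753 and 345 in siCGGBP1. The highest siCGGBP1 library was well below the lowest siControl one, at a log2 fold change of -1.46 ± 0.31 (edgeR adjusted p = 0.0346), and the call was lost when any one library other than siCGGBP1 library 3 was left out, with adjusted p from 0.0447 without that library to 0.129. MCM3 (chromosome 6, 52264014 to 52284881, minus strand) had 4266, 4931 and 4793 reads against 3125, 2512 and 2014. It was also apart in every library, at -0.87 ± 0.20 (edgeR adjusted p = 0.0492), and with 1 library left out its adjusted p ran from 0.0851 to 0.145, so the call needed all 6. Of all tested genes, 1.21% were called lower with all 6 libraries and 1.09% without siCGGBP1 library 3. The share was 0.326% to 0.503% when any other library was left out.

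The other subunits of the ring stood between these values and 0. MCM2 had 2384, 2459 and 2773 reads in siControl against 1500, 1143 and 1583, or -0.85 ± 0.21 (edgeR adjusted p = 0.0615). MCM4 was at -0.69 ± 0.19 (edgeR adjusted p = 0.0883) and MCM6 at -0.48 ± 0.24. MCM7 was the subunit closest to 0 at -0.38 ± 0.20, and its siCGGBP1 libraries, at 2765 to 2913 reads, reached into the siControl range of 2896 to 4479. Summed over the ring after scaling for library composition, siCGGBP1 held 928 ± 59.2 RPM and siControl 1530 ± 130 (SD, n = 3), a ratio of 0.607.

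**Figure D3:**
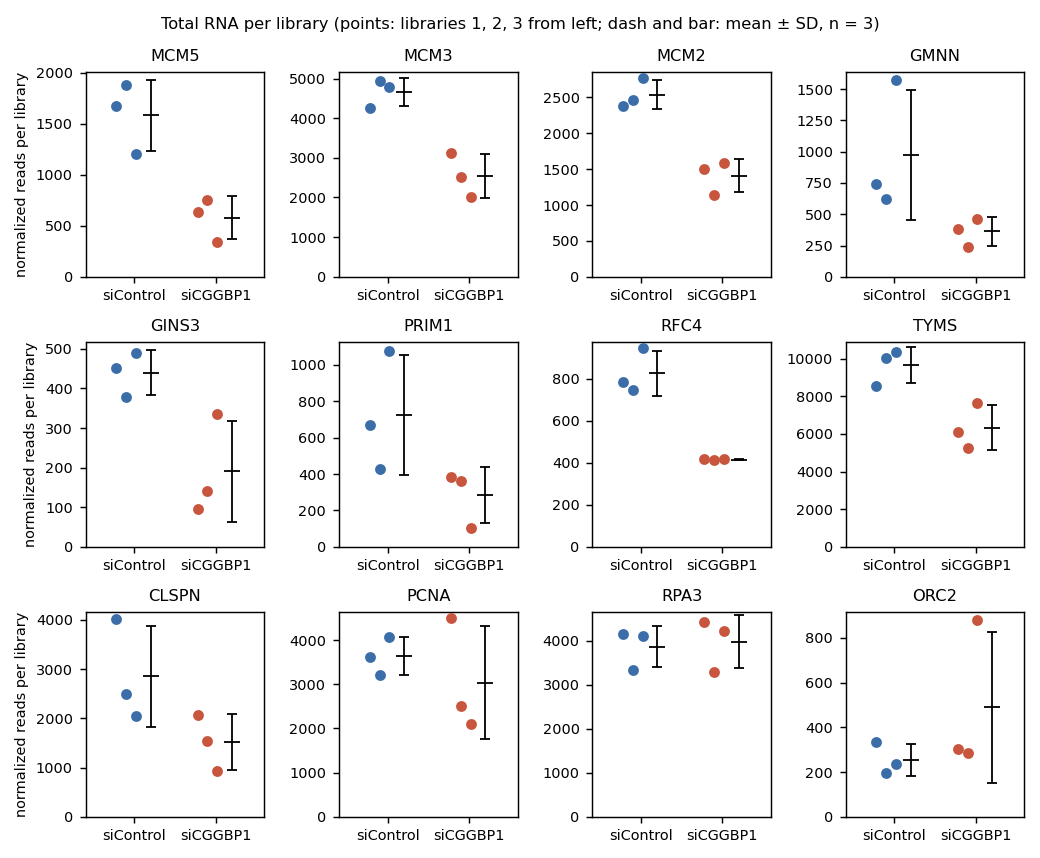
Normalized reads (y axis, from 0) of 12 genes in each siControl (blue) and siCGGBP1 (red) library, with the mean ± SD of 3 libraries beside the points. MCM5, MCM3, MCM2, GMNN, GINS3, PRIM1, RFC4 and TYMS show no overlap between the groups, CLSPN overlaps by 1 pair, and PCNA, RPA3 and ORC2 overlap.

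CDC45, GINS and MCM10, the factors that activate the ring, followed with a median of -0.66 and all 6 below 0. GINS3, a subunit of the GINS complex, had 452, 379 and 489 reads in siControl and 95, 142 and 336 in siCGGBP1 (-1.20 ± 0.48, edgeR adjusted p = 0.228). GINS2, another subunit, had 1415, 1562 and 1733 against 1042, 1055 and 667 (-0.77 ± 0.25, edgeR adjusted p = 0.140). Both were lower in every siCGGBP1 library, as was MCM10, a scaffold of helicase activation (-0.77 ± 0.26). The remaining GINS subunits were split, with GINS4 at -0.55 ± 0.29 and GINS1 at -0.09 ± 0.36, and CDC45 was at -0.20 ± 0.28. The last 1000 bases of GINS2 are overlapped by GSE1 on the opposite strand, and opposite-strand genes also overlap the ends of GINS1, ORC4, RFC4, RFC5, TYMS and CHAF1A.

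Polymerase alpha-primase, which lays down the RNA-DNA primer, had the second lowest median of the roles at -0.74. PRIM1, the catalytic primase subunit, had 671, 426 and 1078 reads in siControl and 385, 363 and 106 in siCGGBP1 (-1.35 ± 0.48, edgeR adjusted p = 0.177). The groups did not overlap but each varied widely, and the end of PRIM1 is overlapped by NACA on the same strand, so that reads of the pair may be shared. POLA2 was at -0.82 and PRIM2 at -0.66, while POLA1, the polymerase subunit, was at -0.08 ± 0.56.

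The polymerases that extend the strands stood closer to 0. Polymerases delta and epsilon had a median of -0.39, with 5 of 5 below 0 and 0 at an unadjusted p under 0.05. POLE2, a subunit of polymerase epsilon, had 632, 423 and 644 reads in siControl and 425, 280 and 375 in siCGGBP1, an overlap of 1 pair (-0.65 ± 0.33, edgeR adjusted p = 0.349). POLE, its catalytic subunit, had 448, 739 and 729 against 536, 576 and 266 (-0.48 ± 0.36). POLD1 and POLD2 were both at -0.14, within their SE of 0.50 and 0.32. The end of POLD1 is overlapped by another counted gene on the same strand, so that reads may be shared.

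Of the 5 subunits of the clamp loader, 4 had a log2 fold change below that of the clamp and RFC2 lay above it, differences that were not tested. RFC4, a small subunit of replication factor C, had 787, 746 and 949 reads in siControl and a narrow 418, 412 and 416 in siCGGBP1 (-0.99 ± 0.27, edgeR adjusted p = 0.0863). RFC1, the large subunit, stood at -0.78 ± 0.22 (edgeR adjusted p = 0.0941) and RFC5 at -0.42 ± 0.36, both without overlap. RFC3 was at -0.91 ± 0.43 with overlap, and RFC2 at 0.13 ± 0.26. PCNA, the sliding clamp, had 3625, 3205 and 4064 reads in siControl and 4500, 2511 and 2098 in siCGGBP1. Its libraries overlapped, with siCGGBP1 library 1 the highest of all 6, and the log2 fold change was -0.26 ± 0.26.

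Okazaki fragment processing and single-strand binding showed no called gene. FEN1, the flap endonuclease, had 3080, 3995 and 4229 reads in siControl and 2657, 2833 and 3082 in siCGGBP1, where only the highest siCGGBP1 library reached the lowest siControl one (-0.40 ± 0.19, edgeR adjusted p = 0.324). LIG1, the ligase that seals the nick, had 759, 1484 and 1155 against 818, 914 and 734 (-0.46 ± 0.28). The end of FEN1 is overlapped by FADS2 on the same strand. DNA2, a nuclease for long flaps, was at -0.24 ± 0.51. The 3 subunits of RPA, the single-strand binding protein, diverged. RPA2 had 792, 978 and 534 reads in siControl and 575, 560 and 163 in siCGGBP1 (-0.83 ± 0.43), RPA1 was at -0.32 ± 0.30, and RPA3 was at 0.04 ± 0.19 with 3336 to 4154 reads in siControl and 3294 to 4439 in siCGGBP1.

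In fork protection, TIPIN and CLSPN had the lowest values. TIPIN, the partner of TIMELESS at the fork, had 622, 511 and 474 reads in siControl and 275, 358 and 351 in siCGGBP1 (-0.71 ± 0.32, edgeR adjusted p = 0.292), without overlap. TIMELESS itself was at 0.03 ± 0.24. CLSPN, the checkpoint mediator claspin, had 4008, 2492 and 2051 reads against 2073, 1544 and 934 (-0.91 ± 0.31, edgeR adjusted p = 0.159), and its groups overlapped by 1 pair. WDHD1, which links the helicase to polymerase alpha, had 782, 336 and 253 against 478, 288 and 403. Its log2 fold change of -0.23 ± 0.43 turned to 0.40 without siControl library 1.

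All 3 genes of nucleotide supply had a log2 fold change below 0, with a median of -0.41, and none was called. TYMS, thymidylate synthase, which makes dTMP, had 8552, 10039 and 10364 reads in siControl and 6093, 5262 and 7631 in siCGGBP1. The groups were apart and the SE was the smallest of all 53 (-0.61 ± 0.18, edgeR adjusted p = 0.108). The ribonucleotide reductase subunits RRM2 and RRM1 stood at -0.41 ± 0.19 and -0.26 ± 0.19, with overlap. In chromatin and histone supply, CHAF1A, the large subunit of the histone chaperone CAF-1, had 727, 741 and 528 reads in siControl and 393, 366 and 636 in siCGGBP1 (-0.51 ± 0.32). Its partner CHAF1B went the other way with 167, 226 and 159 reads against 265, 163 and 414 (0.61 ± 0.49), and both overlapped. SLBP, which binds histone mRNA, was at -0.53 ± 0.37, and UHRF1, which reads hemimethylated DNA, at -0.17 ± 0.37.

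Genes with more reads had the smaller SE in the median, with CLSPN and PCNA among those that varied widely between libraries. The 20 genes with more than 1000 normalized reads in siControl had a median coefficient of variation between libraries of 12.5% (siControl) and 19.9% (siCGGBP1), their median SE was 0.23 and their median log2 fold change was -0.58. For the 33 others the variation was 21.9% and 31.9%, the median SE 0.38 and the median -0.39. A subset of 23 members stands in a widely used list of G1/S marker genes. In it 21 of 23 were below 0 with a median of -0.53 and 10 at an unadjusted p under 0.05, and among the other 30 these were 27, -0.41 and 6. The 22 members with the E2F consensus in their promoter were all below 0 with a median of -0.63, and of the 24 without it 20 were below 0 with a median of -0.29. Of the 15 promoters of genes without overlap 9 held the consensus, and of the 31 others 13 did. Members without a promoter entry, MCM4 and MCM5 among them, stood on neither side, and these differences were not tested.

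Most further genes of replication, listed outside the 53, also had a log2 fold change below 0. Of 62 such genes 58 were tested, 47 of them were below 0 and 11 above, with a median of -0.38. Here 1 was called lower and 0 higher, against 1.21% and 0.572% of tested genes, and the libraries did not overlap in 18 that were lower and in 2, DONSON and POLE4, that were higher, each against 12.1% of tested genes. The called gene was DNMT1, the maintenance DNA methyltransferase that follows the fork, with 4779, 4386 and 5406 normalized reads in siControl and 2767, 2623 and 1941 in siCGGBP1 (-0.99 ± 0.20, edgeR adjusted p = 0.0252).

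Within these lists, 9 of the 10 genes of nucleotide metabolism were below 0, with a median of -0.45 and 6 without overlap. In the E2F factors and G1/S drivers, 9 of 10 tested were below 0 with a median of -0.64. CDC25A, a phosphatase that activates CDK2, was lowest there in p, with 575, 973 and 539 reads against 266, 368 and 185 (-1.35 ± 0.37, edgeR adjusted p = 0.0883).

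The other three lists were more mixed. In the licensing and firing regulators 7 of 10 tested were below 0 with a median of -0.49, and DBF4, the activator of the CDC7 kinase, was lowest in p at -0.87 ± 0.32 (edgeR adjusted p = 0.193), with overlap. DONSON, a replication factor of the same list, was on the higher side with 297, 336 and 180 reads in siControl and 575, 424 and 581 in siCGGBP1 (0.96 ± 0.36, edgeR adjusted p = 0.202), and its libraries did not overlap. In replication-coupled chromatin and repair 15 of 17 were below 0 with a median of -0.31. Polymerase subunits and accessory loaders had 7 of 11 below 0 with a median of -0.17. Their lowest p was on the higher side, for POLE4, a small subunit of polymerase epsilon, with 417, 481 and 215 reads in siControl and 604, 619 and 800 in siCGGBP1 (0.86 ± 0.35, edgeR adjusted p = 0.237).

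Newly synthesized RNA of the same genes was far noisier. Its amount was taken as reads times the new-to-total ratio, the modelled share of a gene's reads that come from RNA made in the 60 min of labelling. Across the 53 genes, T-to-C conversions per 100 covered T were 0.236, 0.209 and 0.188 in siControl and 0.294, 0.212 and 0.216 in siCGGBP1. Without 4sU the value was 0.0800. Labelling was thus above the unlabelled background in all 6 libraries, and the groups overlapped. In 5 members the library without 4sU held more than 100 conversions per 1000 reads. FEN1 and MCM2 accounted for 1059 and 671 of its 3709 conversions. In MCM2 these were 139 per 1000 reads, against 115 to 173 in siControl and 165 to 330 in siCGGBP1. FEN1 had 134 without 4sU, against 111 to 163 in siControl and 75.0 to 241 in siCGGBP1. In both genes the siControl libraries therefore lay on either side of the unlabelled one. All 3 siControl libraries were above it in 32 of the 53 members, and all 6 libraries in 16. MCM3 had 2.61 per 1000 reads without 4sU and 36.9 to 51.8 in siControl.

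The new-to-total ratio was exactly 0 for 8, 6 and 26 of the 53 genes in siControl libraries 1, 2 and 3, and for 15, 16 and 31 in siCGGBP1. Only 13 genes were above 0 in all 6 libraries, 18 were at 0 in 3 or more, and POLD1, the catalytic subunit of polymerase delta, was at 0 in all 6. Pooled over the 53 genes, new RNA made up 4.89%, 4.60% and 4.74% of reads in siControl and 6.17%, 3.94% and 5.24% in siCGGBP1. The siCGGBP1 libraries fell on both sides of the siControl ones, and the difference of 0.369 percentage points turned to -0.157 without siCGGBP1 library 1.

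No member was called in new RNA. By edgeR 0 of the 53 were called lower and 0 higher (0.0197% and 0.0296% of tested genes), and 0 had an unadjusted p under 0.05 (3.15% of tested genes). DESeq2 also called 0 members, where 0.158% and 0.109% of tested genes were called lower and higher. With limma 0 members were called, and 0% of tested genes. The log2 fold change was below 0 for 34 of the 53, or 64.2%, against 50.7% of tested genes, with a median of -0.55, and for 6 members (11.3%) the groups did not overlap, lower in siCGGBP1 (4.42% of tested genes), and for 0 the other way round (2.9%). Without both libraries numbered 3 the median was -0.55 with 37 below 0 and again 0 called. Leaving out single libraries moved the median between -0.86 (without siCGGBP1 library 1) and -0.10 (without siControl library 2). The median of new RNA over all tested genes was -0.03 with all 6 libraries, and it moved to -0.42 and 0.08 under these same omissions. Counting conversions in place of modelled new reads gave 0 members called lower or higher (0.069% and 0.118% of tested genes), 2 at an unadjusted p under 0.05 (5.72%) and 34 below 0 (against 51% of tested genes), with a median of -0.30. The biological coefficient of variation of the fit, the spread between libraries beyond counting error, was 1.78 for new and 0.399 for total RNA, and differences of the size seen in total RNA were not detectable in new RNA at this spread.

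**Figure D4:**
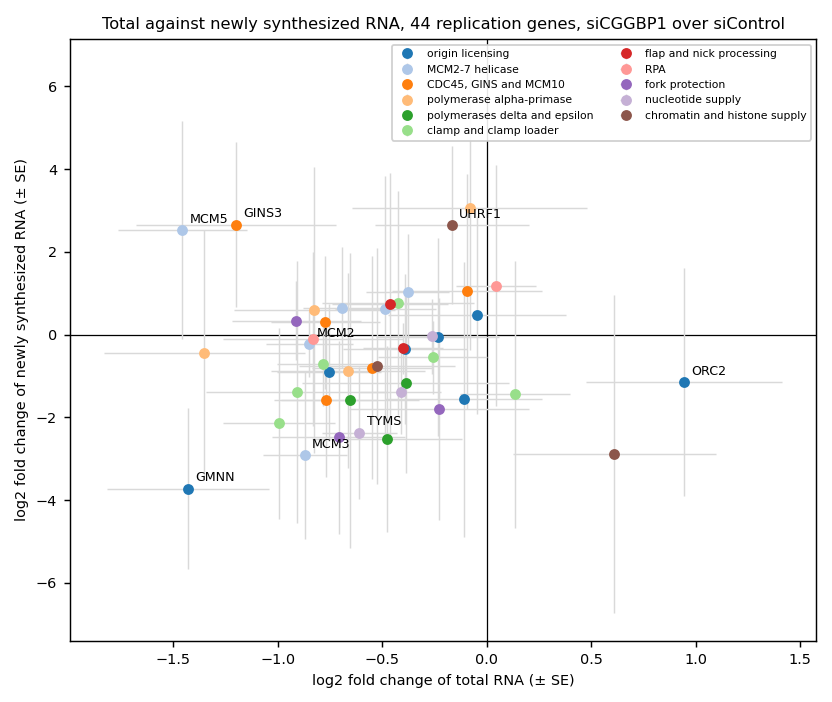
Log2 fold change of total RNA (x axis) against that of newly synthesized RNA (y axis), siCGGBP1 over siControl, each ± SE of the edgeR fit with 3 libraries per group, for the 44 genes with more than 3 new reads in some library of both groups. The vertical bars are several times longer than the horizontal ones, and MCM5 and GINS3 lie below 0 in total and above 0 in new RNA.

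The ratios of single genes showed which ones separated. The groups did not overlap for 6 members with a lower ratio in siCGGBP1 (4.22% of tested genes) and for 2 with a higher one (2.85%). MCM3 had ratios of 2.73%, 2.54% and 2.00% in siControl and 1.45%, 0% and 0% in siCGGBP1, where the upper credible limit of both zeros was 0.21%. Its conversions per 1000 reads were 39.4, 13.4 and 2.04 in siCGGBP1, against 36.9 to 51.8 in siControl and 2.61 without 4sU. By this count siCGGBP1 library 2, at a ratio of 0, lay above the unlabelled level, and siCGGBP1 library 1 lay within the siControl range. TYMS had 1.78%, 1.25% and 1.79% against 0.24%, 0.80% and 0.43%. MCM3 and TYMS were therefore genes in which total RNA and the modelled share of new RNA were both lower in every siCGGBP1 library. GMNN, with 7.97%, 8.51% and 19.1% against 4.30%, 6.15% and 0%, was another, as was ORC1, whose ratios follow below. By conversions per 1000 reads the GMNN groups overlapped, at 150, 108 and 229 against 72.5, 115 and 3.55. Without 4sU GMNN held 55.0, so its siCGGBP1 library 3 lay below the unlabelled level.

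The highest ratios in siControl belonged to ORC2, ORC1, POLE, TIPIN and WDHD1, with means of 12.7% to 16.2%. ORC1 had 11.9%, 5.99% and 26.7% in siControl and 1.80%, 0% and 0% in siCGGBP1. POLE had 19.2%, 10.1% and 14.1% against 0%, 3.46% and 9.58%. In WDHD1 the ratios were 7.07%, 14.7% and 16.3% against 6.83%, 3.49% and 0%. The ratios of ORC1, POLE and WDHD1 were lower in siCGGBP1 without overlap, in WDHD1 by only 6.83% against 7.07%. By conversions per 1000 reads the WDHD1 groups overlapped, at 109, 174 and 226 in siControl against 135, 62.1 and 4.08 in siCGGBP1. TIPIN, at 20.8%, 21.7% and 0% against 11.02%, 3.62% and 0%, overlapped through its zeros. It held 237 conversions per 1000 reads without 4sU, against 249, 255 and 0 in siControl, so that 2 of these were close to the unlabelled level and the third was at 0. ORC2 had 0%, 4.44% and 44.1% against 0%, 17.8% and 0%, so its high mean came from siControl library 3.

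Higher ratios in siCGGBP1 without overlap were found for 2 members, both genes of the helicase, and for 2.85% of tested genes. MCM4 had 2.08%, 1.35% and 2.5% in siControl and 6.94%, 2.66% and 4.91% in siCGGBP1. Its conversions per 1000 reads were 47.6, 30.2 and 37.9 against 101, 41.6 and 102, and 30.3 without 4sU. By this count the MCM4 groups overlapped, and siControl library 2 was at the unlabelled level. GINS3 had ratios of 3.90%, 4.18% and 3.95% against 17.2%, 18.3% and 87.0%. Its conversions per 1000 reads were also apart, at 73.2 to 92.4 against 169 to 1399, and 4.01 without 4sU. In both the ratio was higher while total RNA was lower, and siCGGBP1 library 3 of GINS3 lay far beyond the others. MCM5, the gene with the lowest log2 fold change in total RNA, showed the same spread, with 1.86%, 0% and 0% in siControl and 5.55%, 0% and 42.5% in siCGGBP1.

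By role, the pooled share of new RNA separated the groups for polymerases delta and epsilon, at 6.38%, 4.42% and 3.20% in siControl and 2.61%, 0.835% and 1.44% in siCGGBP1. Of the 5 genes of this role, POLE alone had ratios without overlap, and POLD1 was at 0 in all 6 libraries and POLD2 in 5. The separation of the pooled shares was not tested. In every other role the pooled shares overlapped. The MCM ring had 3.53%, 3.38% and 2.77% against 5.84%, 2.505% and 8.40%, and nucleotide supply had 3.29%, 3.79% and 3.60% against 3.77%, 2.86% and 1.71%.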

How the data were processed

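Libraries of 3′ mRNA ends (QuantSeq) were made from alkylated RNA of 3 siControl and 3 siCGGBP1 samples at 75 µM 4sU and of single siControl samples at 0 and 200 µM. The authors removed rRNA reads with Bowtie2 2.3.0, mapped the rest to GRCh38 with STAR 2.5.3a and modelled new RNA with GRAND-SLAM. The deposited read, conversion and coverage values are expected counts, which hold fractions where a read matched several genes, and the deposited new-to-total ratios are fractions from 0 to 1 with credible limits at the 5 and 95% quantiles. Another 30 per-sample columns (model parameters and double hits) were not used, and the columns hold no comparisons. Overlapping genes on the same strand may share reads. No removal of PCR duplicates is stated, so counts are reads, not molecules.

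Counts were rounded. A gene entered the test (10138 of 18388) when 3 or more of the 6 libraries held at least 100 reads of it. The test was the quasi-likelihood test of edgeR 4.0.16 in R 4.3.3 after TMM scaling, which measures change relative to the bulk of genes, and with Benjamini-Hochberg adjustment over all of them. Normalized reads are scaled to the mean effective library size of 11554980. New RNA is reads times the most probable ratio, rounded, on the scale of total reads, and 184 missing ratios of tested genes counted as 0. Groups at 3 new reads or fewer in every library were treated as at the floor. Error is the SE of the fit or the SD of 3 libraries, and genes with few reads had the larger SE in the median. DESeq2 1.42.0, limma 3.58.1 (1 or 10 added to new reads before log2), other filters, scalings, thresholds and left-out libraries were alternatives, and leaving out both libraries numbered 3 was added after the data were seen. Only the edgeR fit of total RNA was tried on simulated counts, at a smaller spread between libraries than in these data. The fits of new RNA and those by DESeq2 and limma were not.

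Samples were grouped by their titles. Same-numbered libraries of the 2 groups deviated together with correlations of 0.105, 0.172 and 0.0837, which did not all pass 0.1, and were not taken as pairs. The 53 members, their 11 roles, the 62 further genes, the motifs and the named genes were chosen with earlier results of these data known. Named with values in every library are called members, the lowest p and largest change of each role, the 5 highest siControl ratios and, chosen after their values were seen, CDC6, MCM2, MCM4, PCNA, FEN1 and DONSON. The lowest p of the nucleotide metabolism list is not reported here. Coordinates are from the GENCODE annotation of GRCh38.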

Additional observations from a re-analysis of the deposited data

Results flagged for a closer look

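The siControl library with 200 µM 4sU belonged to no comparison. Per 100 covered T of the 53 replication genes it held 0.216 conversions to C. That exceeded the unlabelled library, at 0.0800, and was within the 0.188 to 0.236 of the siControl libraries at 75 µM. Single genes differed in both directions. MCM3 had 218 conversions per 1000 reads at 200 µM, against 36.9 to 51.8 in siControl at 75 µM, and RFC1 had 4.60 against 54.5 to 85.6. Without 4sU MCM3 held 2.61 and RFC1 30.6, so RFC1 at 200 µM lay below its unlabelled level. The library at 200 µM had no replicate, and 31 of the 53 genes were at a new-to-total ratio of 0 in it.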

How the results depend on the processing

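For total RNA, the members called lower numbered 2 by edgeR, 7 at an adjusted p under 0.1, 1 with a log2 fold change beyond 1 as well, 10 with DESeq2, 1 with filterByExpr (MCM5), 8 without a filter on low counts, 6 with libraries 1 and 2 only, and 0 to 2 with single libraries left out. Of all tested genes, 3.50% were called lower and 2.60% higher with DESeq2, 0.740% and 0.311% with filterByExpr, 1.74% and 1.00% without a filter, 2.28% and 1.73% with libraries 1 and 2 only, 2.47% and 1.76% at an adjusted p under 0.1, and 0.957% and 0.454% with the fold threshold. With single libraries left out, 0.326% to 1.09% were called lower and 0.148% to 0.523% higher. DESeq2 size factors kept the count of members at 2, and 0 members were called higher under any of these settings. The median log2 fold change ran from -0.58 to -0.42 with single libraries left out. With the replicate number as a replicate block, 6 members were called lower (CLSPN, GMNN, MCM2, MCM3, MCM5, RFC1), and over all genes 165 (1.63%) were lower and 88 (0.868%) higher, against 123 and 58 without it. Each library correlated best with the same-numbered one, a hint from the data and not from the design. The block called 0 members in new RNA, as every other setting did. No setting called more than 0.158% of tested genes lower or higher in new RNA. The median of new RNA was -0.55, and -0.64 with DESeq2, -0.30 with conversion counts, -0.65 and -0.39 with limma after adding 1 and 10, -0.44 over the 43 members with a mean of at least 10 new reads, -0.95 with the replicate block, and -0.86 to -0.10 with single libraries left out. Over all tested genes it was -0.03, and -0.15 with DESeq2, -0.03 with conversion counts and -0.17 and -0.06 with limma. It was -0.20 with the replicate block and -0.42 to 0.08 with single libraries left out. The pooled ratio difference of 0.369 percentage points ran from -0.157 to 0.957 with single libraries left out, and WDHD1 in total RNA ran from -0.52 to 0.40, the latter without siControl library 1. The cause was not tested. Of the 240 values of 20 named genes under 12 alternatives, 213 kept direction and side of the threshold. Of the 53 members, 18 were at a ratio of 0 in 3 or more of 6 libraries, which limits new RNA most.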
